A study of Mus musculus with 12 samples.

Results

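The genes described here encode the enzymes that build sugar chains on proteins and lipids and that make the glycosylphosphatidylinositol (GPI) anchor, a glycolipid that holds many proteins at the cell surface. They were chosen by gene symbol: the Pig genes (without Pigr), the Alg, Mgat, B3galt, B3gnt, B3gat, B4galt, B4galnt, Galnt, Chst, Ext, Ndst, Hs2st, Hs3st, Hs6st and Xylt families, the sialyltransferases, and Chsy1, Chsy3, Chpf and Chpf2. The rule found 154 symbols among the 50320 symbols of the deposited tables, 152 in the table of sorted cells and 150 in that of cultured cells. Galnt17 and St6galnac2 were in the cultured table only, and the antisense transcripts Galnt6os and St8sia3os and the entries St6galnac2_1 and St6galnac2_2 in the sorted table only.

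RNA came from mouse Sertoli cells, the somatic cells that enclose and nourish the developing germ cells of the testis, in 4 groups of 3 libraries. The sorted controls (AmhCre; Ptbp1 flox/wt; mTmG;wt) carried 1 floxed Ptbp1 allele and the conditional knockouts (cKO; AmhCre; Ptbp1 flox/flox; mTmG;wt) carried 2, so both shared the Cre, which the Amh promoter drives in Sertoli cells, and the mTmG colour reporter, and the controls were not wild type. The cultured groups were wild-type primary Sertoli cells, of which total RNA (input) and the RNA that came down with PTBP1 (immunoprecipitate) were sequenced. PTBP1 is a polypyrimidine tract binding protein that acts on splicing and RNA stability. Neither the age of the mice nor a mock immunoprecipitation is labelled. Nothing labelled says that the libraries within a group are from different animals or cultures, and p-values thus cover a spread that may be technical.

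N-glycans start as a shared precursor that the Alg enzymes build on the lipid dolichol, that oligosaccharyltransferase moves onto the protein, and that Mgat, galactosyl- and sialyltransferases of the Golgi then branch and cap. Glycosaminoglycans start from a xylose linker and are polymerized as chondroitin by the Chsy and Chpf proteins or as heparan by the Ext proteins before they are sulfated. The GPI anchor is assembled in the endoplasmic reticulum by the Pig proteins and joined to its protein by the transamidase, whose subunits are Pigk, Pigs, Pigt, Pigu and Gpaa1. In the testis such glycans line the surface where Sertoli and germ cells meet, and male mice that lack complex gangliosides are known to be infertile.

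The libraries held 11980474 to 13750181 counts in the sorted groups, 12894035 to 15315115 in the inputs and 26725003 to 28796396 in the immunoprecipitates. Ptbp1 itself was at 247 ± 5.29 CPM (counts relative to the TMM-scaled library size, mean ± SD, n = 3) in controls and 7.78 ± 0.184 in cKO cells. The 8 Sertoli cell markers summed to between 4987 and 5353 CPM in controls and between 4054 and 4770 in cKO cells, and 5 of the 8 were lower in cKO cells, Dhh and Amh among them. The 8 germ cell markers summed to 203 to 317 CPM in controls and 366 to 412 in cKO cells, and 4 of the 6 that were tested were higher, while Prm1 had no count in any library. Of the markers of other cells in the sorted libraries, the myoid list summed to 40.7 to 73.8 CPM, the Leydig list to 26.2 to 47.8, the endothelial list to 5.04 to 18 and the red blood list to 20.8 to 61.5. The third cKO library stood apart in some of these: Hbb-bs was at 23.8 CPM there against 0.841 to 4.07 in the other sorted libraries, Hba-a2 at 13.7 against 1.17 to 3.66, and Cdh5, of endothelium, at 4.85 against 0.700 to 1.19, whereas Alas2, also of the red blood list, was lowest there at 8.19 CPM. Hba-a1 (4.44 CPM), Kdr (7.71), Pecam1 (2.59), Acta2 (65.5) and Des (5.12) were also highest in that library, and Vwf, Myh11 and Cnn1 were not. Macrophage markers reached 85.3 to 149 CPM, nearly all from Mrc1, with Adgre1 at or near 0. In the cultured inputs myoid markers summed to 1295 to 1330 CPM, led by Acta2, and Leydig markers to 210 to 218. Endothelial markers summed to 71.6 to 85.5 CPM there, germ cell markers to 20.6 to 21.8 and macrophage markers to 8.76 to 8.91. The Sertoli cell markers summed to 3621 to 3762 CPM in the inputs, led by Cldn11, with Amh at 15.4 to 19.0 and Rhox5 at 0.231 to 0.544. What part these other cells had in the results below was not tested.

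In sorted cKO cells more members of these families were lower than higher, and among the 13 roles the median log2 fold was lowest for the GPI transamidase (-0.82) and for the chondroitin polymerases and their partners (-0.67). Of the 103 members with enough counts to be tested, 40 were lower and 14 higher in cKO cells at an adjusted p under 0.05 (edgeR's quasi-likelihood test, adjusted over 13405 genes), and 49 were not called. Of all genes tested, 21.4% were lower and 17.6% higher. The members' median log2 fold was -0.20, against 0.00 over all genes. A fall of at least 2-fold was called for 7 members, against 2.31% of all genes, and a rise of that size for 4, against 4.1%. All 3 cKO libraries lay below all 3 controls for 45 members (26.8% of all genes) and above them for 14 (23.0%). The summed level of all members was 7142, 7151 and 6953 CPM in the controls and 4961, 4993 and 4576 CPM in the cKO libraries. In bulk RNA, fewer cells of a type and less RNA per cell cannot be told apart. Scaled by library size alone, which moved the median of all genes to 0.17, the counts became 31 lower and 18 higher, against 1863 lower and 3476 higher over all genes where the TMM scaling gave 2870 and 2359.

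The other 49 members of the sorted table had too few counts for a test. None of their libraries was above 1.98 CPM, the value of Mgat5b, and 9 of the 49 had no count in any of the 6 libraries. A member that passed this filter only because 1 group was high could only have differed, so the counts above describe the tested members and not the families as a whole.

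**Figure D1:**
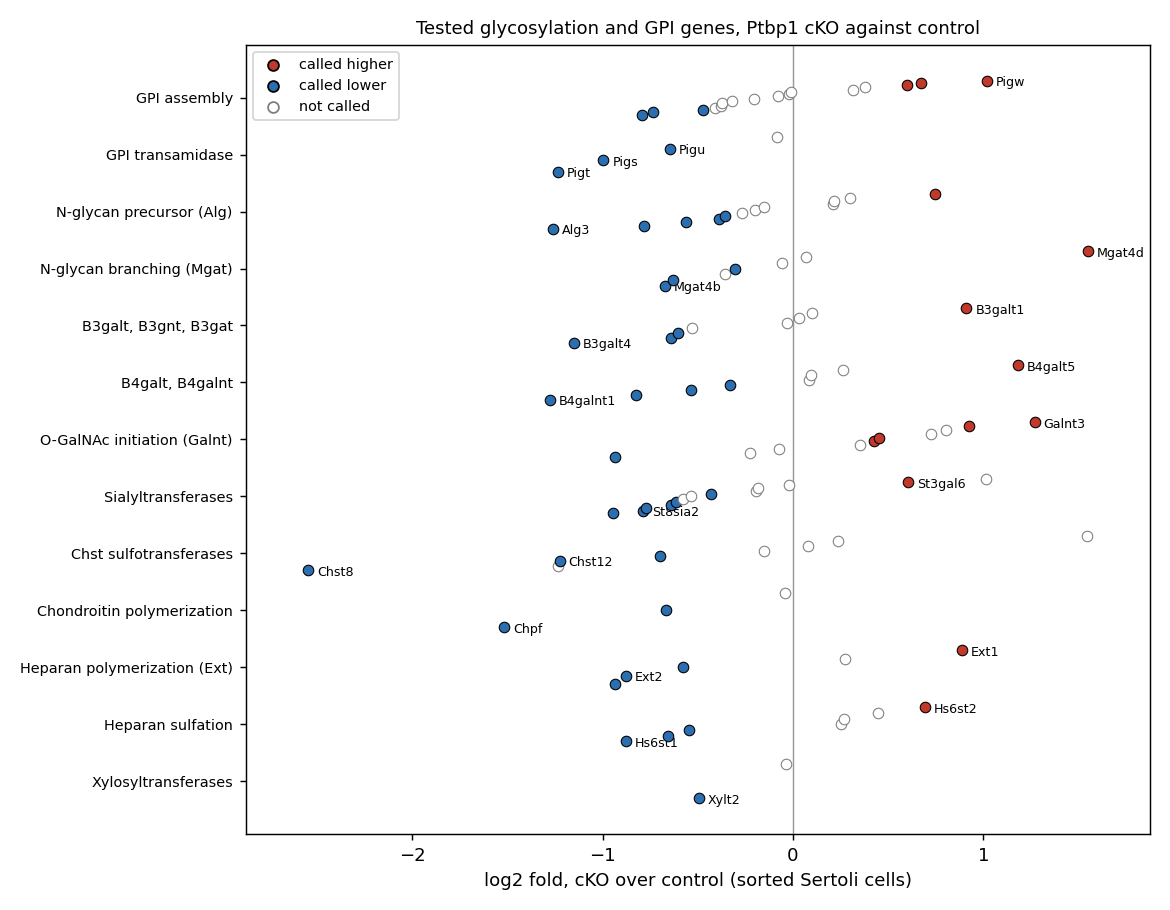
Each point is a tested member, placed by its log2 fold in cKO over control sorted Sertoli cells (horizontal axis) and by its role (vertical axis). Red points were called higher, blue points lower and white points neither at an adjusted p under 0.05. Blue points outnumber red by 40 to 14, and the row of the Galnt enzymes, with 4 red and 1 blue, is an exception.

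The promoters of Chpf and Pigt, the members that mark this group, are shown with that of Galnt3, the rising member with an entry whose fold was among the largest, from 250 bases before to 50 bases after the RefSeq start on GRCm38.p6. Capitals mark matches on either strand. The motif called GC box reads GGGCGG. The CCAAT box reads as its name. The motif called TATA box was searched as TATAAA. The E box was searched as CACGTG.
Chpf, chr1:75479422-75479721, minus strand: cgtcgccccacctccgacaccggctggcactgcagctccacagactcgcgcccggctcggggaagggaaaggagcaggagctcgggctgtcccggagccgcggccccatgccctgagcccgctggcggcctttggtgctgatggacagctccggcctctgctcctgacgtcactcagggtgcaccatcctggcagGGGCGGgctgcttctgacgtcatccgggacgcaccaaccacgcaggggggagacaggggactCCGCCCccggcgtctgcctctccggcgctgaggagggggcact
Pigt, chr2:164497275-164497574, plus strand: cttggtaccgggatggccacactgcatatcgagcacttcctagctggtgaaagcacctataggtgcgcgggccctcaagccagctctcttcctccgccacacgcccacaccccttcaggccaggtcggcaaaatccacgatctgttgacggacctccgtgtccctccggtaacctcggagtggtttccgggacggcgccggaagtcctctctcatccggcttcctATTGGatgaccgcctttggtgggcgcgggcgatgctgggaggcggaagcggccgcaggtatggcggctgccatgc
Galnt3, chr2:66124744-66125043, minus strand: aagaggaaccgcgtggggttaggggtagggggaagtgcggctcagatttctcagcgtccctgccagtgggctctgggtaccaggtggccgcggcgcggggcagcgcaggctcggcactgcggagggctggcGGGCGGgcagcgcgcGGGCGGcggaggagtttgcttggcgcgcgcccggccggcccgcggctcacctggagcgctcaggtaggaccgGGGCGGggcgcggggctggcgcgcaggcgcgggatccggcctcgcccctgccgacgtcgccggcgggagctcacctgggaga
The Chpf window held 2 GC boxes, the Pigt window 1 CCAAT box and the Galnt3 window 3 GC boxes. Over the 146 RefSeq promoters of the 118 members that matched, 58.2% held a GC box, against 35.7% of all 32851 promoters. A GC box was in 50% of the 42 promoters of members lower in cKO cells and in 53.3% of the 15 of members higher. The CCAAT box was in 39.7% of members' promoters and 37.4% of all, the TATA box in 4.11% and 13.6%, and the E box in 10.3% and 7.15%. Members' promoters had a median of 62.7% G and C and 21 CpG, against 52.7% and 7 over all promoters.

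Subunits of the GPI transamidase were lower in cKO cells. Of the 4 transamidase members, 3 were lower in cKO cells, against 21.4% of all genes, and Pigk, the catalytic protease, was not called. Their summed level was 701 to 750 CPM in controls and 354 to 401 CPM in cKO cells. Pigt (chromosome 2, 164497520 to 164508301), a subunit that stabilizes the complex, was at 424, 469 and 442 CPM in the control libraries and 175, 210 and 183 CPM in the cKO libraries. The groups lay far apart, and the mean was 2.35 times lower (log2 fold -1.23 ± 0.11 SE, adjusted p = 5.01e-05, edgeR). Pigs was at 136, 140 and 162 CPM in controls and 70.4, 75.7 and 73.6 CPM in cKO cells (log2 fold -1.0, adjusted p = 9.58e-05). Pigu was at 66.9, 63.9 and 59.3 CPM and then 46.7, 37.5 and 37.1 CPM (log2 fold -0.65, adjusted p = 0.00179). Neither gene had a cKO library within the control range. Pigk was at 75.0, 77.3 and 71.1 CPM in controls and 73.1, 78.0 and 59.6 CPM in cKO cells, and the groups overlapped (log2 fold -0.08 ± 0.12, adjusted p = 0.612). The position of Pigk overlaps that of St6galnac5 and a ribosomal pseudogene.

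Gpaa1, the remaining transamidase subunit, belongs to a list of 8 genes of GPI attachment and remodelling that the symbol rule does not hold. It fell from 66.3 to 37.1 CPM (log2 fold -0.84, adjusted p = 0.000208). Of that list 5 of 8 tested genes were lower, against 21.4% of all genes, with a median log2 fold of -0.54. Pgap6, a phospholipase that acts on GPI-anchored proteins, fell from 49.9 to 30.6 CPM (adjusted p = 0.000667).

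Among the 16 tested members of anchor assembly, 3 were lower and 3 higher (18.8% each, near the 21.4% and 17.6% of all genes), with a median log2 fold of -0.14. Pigq, a subunit of the complex that adds N-acetylglucosamine to phosphatidylinositol, was at 28.8, 29.7 and 27.7 CPM in controls and 15.9, 17.9 and 16.0 CPM in cKO cells (adjusted p = 0.000812). Piga, the catalytic subunit of the same complex, moved the other way, from 13.6, 9.97 and 13.2 CPM to 17.5, 17.3 and 20.9 CPM (log2 fold 0.60, adjusted p = 0.0169). Subunits of the same enzyme thus changed in opposite directions, although leaving out the second control library raised Piga's adjusted p to 0.0765. Pigw, which acylates inositol, was at 3.18, 3.49 and 3.09 CPM in controls and 7.07, 6.66 and 6.07 CPM in cKO cells (log2 fold 1.02, adjusted p = 0.00686). The span of Pigw overlaps that of Myo19, and whether the counting used strand is not given in the sources used here. Pigv, the mannosyltransferase of the second mannose, fell from 28.5 to 17.1 CPM and Pigo, which adds ethanolamine phosphate, from 75.0 to 54.1 CPM (adjusted p = 0.00357 and 0.00462). Pigg, a further ethanolamine phosphate transferase, was higher, from 11.0 to 17.5 CPM, with overlapping groups (adjusted p = 0.0347, and up to 0.129 without cKO library 1 or 2 or control 2 or 3).

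The proteins that carry the anchor showed no shared direction. Of 18 tested genes of GPI-anchored proteins, 6 were lower and 3 higher, against 21.4% and 17.6% of all genes. Their median log2 fold was 0.01. Ly6e, a small surface protein, fell from 139 to 55.6 CPM (log2 fold -1.32, adjusted p = 6.24e-05), and Gpc4, a glypican that also carries heparan sulfate, from 171 to 99.3 CPM (adjusted p = 0.000243).

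**Figure D2:**
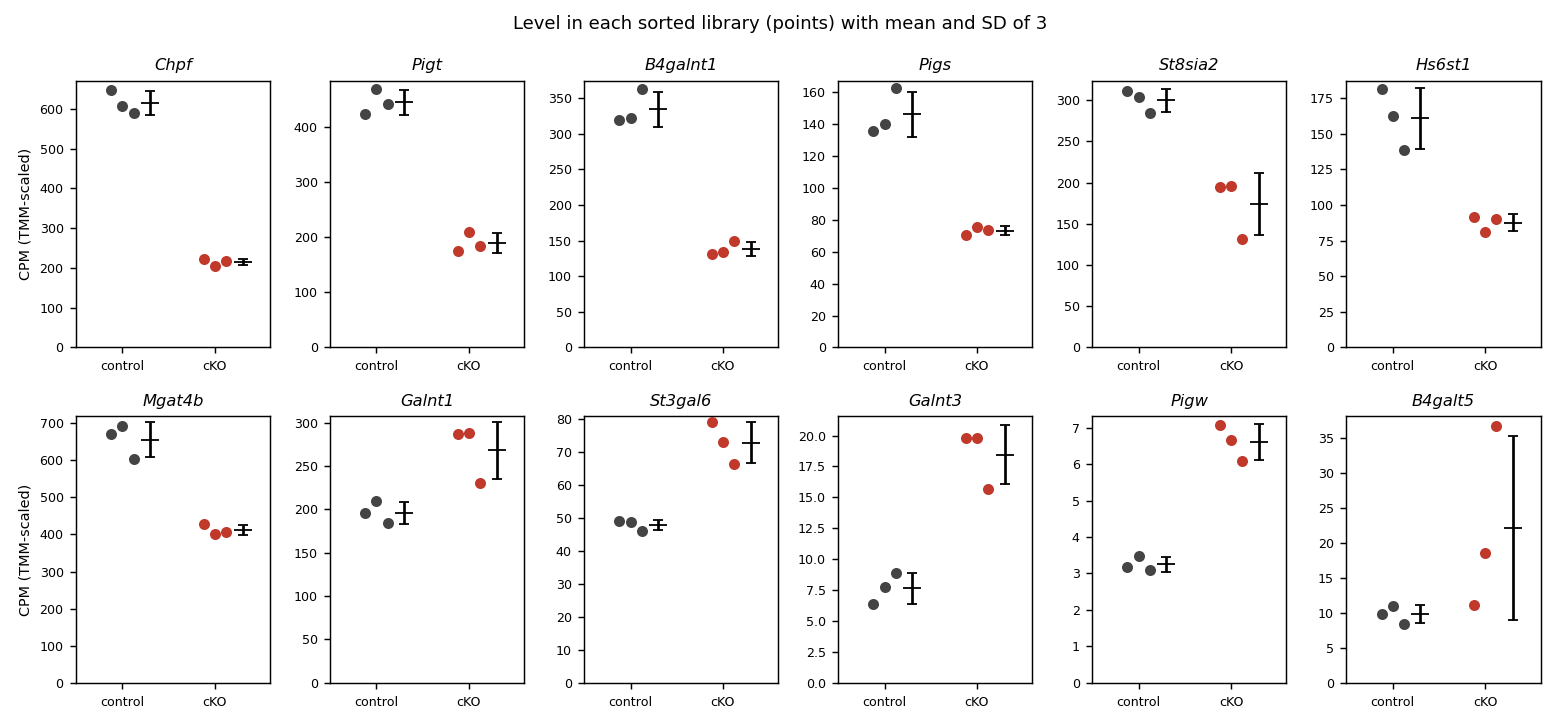
Points are the level in each sorted library, in TMM-scaled CPM on a vertical axis that starts at 0, for controls (grey) and cKO cells (red). The bar beside them is the mean and SD of 3 libraries. Chpf, Pigt, B4galnt1, Pigs, St8sia2, Hs6st1 and Mgat4b were lower in every cKO library than in any control, and Galnt1, St3gal6, Galnt3, Pigw and B4galt5 higher, with the third cKO library of B4galt5 far above the others.

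Genes of the N-glycan precursor fell more often than they rose. Of 12 tested Alg members 5 were lower and 1 higher (41.7% and 8.33%, against 21.4% and 17.6% of all genes). Alg3, which adds the first mannose on the lumenal side, was at 23.3, 20.6 and 15.6 CPM in controls and 8.69, 7.60 and 8.53 CPM in cKO cells (log2 fold -1.26 ± 0.19, adjusted p = 0.000420). Alg2, an earlier mannosyltransferase, was at 69.0, 76.1 and 69.8 CPM and then 42.7, 42.5 and 39.7 CPM (log2 fold -0.78, adjusted p = 0.000260). No cKO library of either gene lay within the control range. Alg1, which adds the mannose that starts the chain, was at 54.1, 66.7 and 68.0 CPM in controls and 42.2, 41.7 and 44.2 CPM in cKO cells (adjusted p = 0.00341). Alg6, a glucosyltransferase of the precursor, was the Alg member that rose, from 4.71 ± 0.675 to 7.93 ± 2.3 CPM (n = 3 each, log2 fold 0.75, adjusted p = 0.0419, edgeR). Some of these calls were lost when a single library was left out. The adjusted p of Alg6 rose to as much as 0.245 without cKO library 2, and it also passed 0.05 without any 1 of the controls. Alg5 and Alg9 were called lower (adjusted p = 0.0379 and 0.0488), but these calls were lost without any 1 library for Alg9 (adjusted p up to 0.125) and without any 1 library but control 2 for Alg5 (adjusted p up to 0.102).

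Genes of the steps around the precursor were also lower more often than higher. Of 10 tested genes of dolichol supply and the earliest steps, 5 were lower and 1 higher, against 21.4% and 17.6% of all genes. Dhdds, a subunit of the prenyltransferase that makes dolichol, fell from 79.0 to 44.7 CPM (adjusted p = 0.000414) and Dpagt1, which puts the starting sugar on dolichol, from 15.2 to 7.24 CPM (adjusted p = 0.00153). Of 11 oligosaccharyltransferase genes 6 were lower and 1 higher. Its structural subunits Rpn2 and Ddost fell from 503 to 275 CPM and from 256 to 149 CPM (adjusted p = 0.000174 and 0.000256). The trimming enzymes came next in the pathway, and 4 of 7 were lower, with Man1b1, a mannosidase, falling from 160 to 90.8 CPM and Mogs, a glucosidase, from 61.0 to 35.8 CPM (adjusted p = 0.000410 and 0.000694).

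In N-glycan branching 3 of 7 tested Mgat members were lower and 1 higher (42.9% and 14.3%, against 21.4% and 17.6% of all genes). Mgat4b, a branching enzyme of the Golgi, had the highest level per length of all members in controls (241 CPM per kb of exon). It was at 671, 693 and 603 CPM in controls and 427, 400 and 407 CPM in cKO cells (log2 fold -0.67 ± 0.10, adjusted p = 0.000525). It still led the members in cKO cells, at 151 CPM per kb. Mgat5, which starts a further branch and overlaps Tmem163, was at 245, 218 and 213 CPM in controls and 169, 163 and 103 CPM in cKO cells, with the third cKO library lowest (adjusted p = 0.00995). Without the first control library its adjusted p was 0.0587. Mgat1, also called lower, went from 52.0 to 42.1 CPM (log2 fold -0.31, adjusted p = 0.0485). That call was lost without any 1 library but control 3 (adjusted p up to 0.174), and also with DESeq2 or library size alone. Mgat4a, which makes the same linkage as Mgat4b, went from 32.4 to 25.3 CPM and was not called (adjusted p = 0.0643). Mgat4d, known in mouse from male germ cells as an inhibitor of Mgat1, was at 2.15, 1.58 and 2.12 CPM in controls and 6.58, 7.13 and 3.48 CPM in cKO cells (log2 fold 1.55, adjusted p = 0.00460). It had no count in any cultured library. The sum of the 8 germ cell markers was also higher in cKO cells, with 4 of the 6 tested called higher and Ldhc overlapping between the groups, and their part in the rise of Mgat4d was not tested.

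Among the tested B4galt and B4galnt transferases the deepest fall was that of B4galnt1. Of 8 tested B4galt and B4galnt members 4 were lower and 1 higher, against 21.4% and 17.6% of all genes. B4galnt1 (chromosome 10, 127165156 to 127172340), the synthase that commits gangliosides to the complex series, was at 319, 321 and 362 CPM in controls and 131, 134 and 149 CPM in cKO cells. Its mean fell 2.42 times with no overlap between the groups (log2 fold -1.28 ± 0.11, adjusted p = 4.39e-05). B4galt3, a galactosyltransferase whose span overlaps Ppox, was at 192, 189 and 190 CPM and then 113, 109 and 100 CPM (adjusted p = 0.000159). B4galt1, the main galactosyltransferase of N-glycans, went from 192, 194 and 191 CPM to 154, 142 and 162 CPM (adjusted p = 0.0201), a call lost without library 1 or 2 of either group (adjusted p up to 0.0961). B4galt5, which makes the lactosylceramide from which gangliosides start, was at 9.86, 11.0 and 8.46 CPM in controls and 11.2, 18.6 and 36.7 CPM in cKO cells. The third cKO library lay far above the other 2, and the call (log2 fold 1.18, adjusted p = 0.0186) was lost without the third cKO library and without the first or the third control (adjusted p up to 0.0871). That library also had the highest Hbb-bs, Hba-a1, Hba-a2, Cdh5, Kdr and Pecam1. Its Alas2, also of the red blood list, was the lowest (8.19 CPM). Its Vwf, also of endothelium (2.87 CPM), lay within the control range (1.30 to 3.74 CPM). Of the myoid list, Acta2 and Des were highest in that library and Myh11 and Cnn1 were not. The part of blood, endothelial or myoid cells in the B4galt5 level was not tested.

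Of 8 tested B3galt, B3gnt and B3gat members 3 were lower and 1 higher (37.5% and 12.5%, against 21.4% and 17.6% of all genes). B3galt4, the galactosyltransferase that follows B4galnt1 in making complex gangliosides, was at 5.01, 4.82 and 5.53 CPM in controls and 2.66, 2.27 and 1.98 CPM in cKO cells (log2 fold -1.15, adjusted p = 0.00834). B3galt1, a galactosyltransferase of type I chains, rose from 9.67 to 18.2 CPM (adjusted p = 0.00414). B3gnt8, which extends polylactosamine and overlaps Bckdha, was at 22.0, 21.5 and 20.3 CPM and then 14, 13.9 and 14.1 CPM (adjusted p = 0.00525). The groups of these genes did not overlap.

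Sialyltransferases, which cap the chains, were lower for 6 and higher for 1 of 13 tested members, against 21.4% and 17.6% of all genes. St8sia2, which makes polysialic acid, was at 312, 304 and 284 CPM in controls and 195, 196 and 131 CPM in cKO cells (log2 fold -0.79 ± 0.15, adjusted p = 0.00159). St3gal2, which acts on gangliosides and O-glycans, was at 348, 334 and 323 CPM and then 225, 200 and 163 CPM (adjusted p = 0.000678). The third cKO library was the lowest for both. St3gal3 was at 35.3, 38.3 and 33.6 CPM in controls and 19.5, 19.3 and 16.9 CPM in cKO cells (log2 fold -0.95, adjusted p = 0.000300). St6galnac6, which acts on gangliosides, fell from 189 to 122 CPM (adjusted p = 0.000846) and St6gal1, the sialyltransferase of N-glycans, from 104 to 67.9 CPM (adjusted p = 0.00281). St3gal4 went from 270 to 200 CPM (log2 fold -0.43, adjusted p = 0.00702), a call that did not hold when the second control was left out (adjusted p = 0.0585) or with library size as the sole scaling. St3gal5, which makes the ganglioside GM3 that B4galnt1 uses, was at 228, 243 and 226 CPM in controls and 213, 203 and 194 CPM in cKO cells. Its groups did not overlap, but the difference missed the threshold (log2 fold -0.19 ± 0.10, adjusted p = 0.146). St3gal6 was the member of this role that rose, from 49.0, 48.8 and 46.1 CPM to 79.2, 73.0 and 66.5 CPM (adjusted p = 0.00130), and it overlaps Dcbld2.

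The Galnt enzymes, which begin mucin-type O-glycans, were the role whose median lay above 0 by the most (log2 fold 0.44). Among their 10 tested members 4 were higher and 1 lower, against 17.6% and 21.4% of all genes. Galnt3 (chromosome 2, 66082766 to 66124994) was at 6.36, 7.72 and 8.87 CPM in controls and 19.8, 19.8 and 15.7 CPM in cKO cells (log2 fold 1.27 ± 0.19, adjusted p = 0.000426). Galnt1, the member of this role with the highest level per length, was at 196, 209 and 184 CPM and then 287, 288 and 230 CPM (log2 fold 0.45, adjusted p = 0.00970). Galnt10 moved the other way, from 105, 93.4 and 115 CPM to 55.3, 59.8 and 48.7 CPM (log2 fold -0.94, adjusted p = 0.000210). No cKO library of these genes lay within the control range. Galntl6 rose from 4.72 to 8.95 CPM (adjusted p = 0.0167). Leaving out cKO library 1, control 1 or control 2 took Galntl6 past the threshold (adjusted p up to 0.0604). In the cultured inputs Galntl6 had no count and Galnt3 was at 0.214 CPM, while the germ cell markers summed to 20.6 to 21.8 CPM there. In the sorted libraries 4 of the 6 tested markers were higher in cKO cells, and their part in the rise of Galnt3 and Galntl6 was not tested. C1galt1, which extends the same glycans, rose from 26.2 to 45.3 CPM (adjusted p = 0.00164), whereas Pofut1, which fucosylates Notch, fell from 59.7 to 36.6 CPM (adjusted p = 0.000934). Of the 14 tested genes of mucin cores and Notch glycans 1 was higher and 3 were lower.

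Among members at 100 CPM or more in controls, the lowest log2 fold was that of Chpf, in chondroitin polymerization. Chpf (chromosome 1, 75474569 to 75479307), a chondroitin polymerizing factor, was at 648, 607 and 590 CPM in controls and 222, 206 and 217 CPM in cKO cells. The lowest control was far above the highest cKO library, and the mean fell 2.86 times (log2 fold -1.51 ± 0.10, adjusted p = 1.90e-05). Chpf2, its paralog, whose span overlaps Smarcd3, was at 17.4, 16.4 and 21.7 CPM and then 13.4, 11.8 and 9.76 CPM (log2 fold -0.67, adjusted p = 0.0124). Chsy1, the synthase that Chpf works with, was at 1.11, 0.747 and 2.28 CPM in controls and 1.40, 1.17 and 1.43 CPM in cKO cells and was not called (adjusted p = 0.951). Per kb of exon, Chpf held 97.7% of the summed level of the 4 members of this role in controls and 95.7% in cKO cells.

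Of the 5 genes of the linker that precedes chondroitin and heparan, B4galt7, B3gat3 and Xylt2 were lower, and Xylt1 and B3galt6 were not called. B4galt7, which adds its galactose, was at 91.3, 89.6 and 87.8 CPM in controls and 66.5, 63.2 and 55.9 CPM in cKO cells (adjusted p = 0.00227). B3gat3, which completes the linker, was at 99.5, 111 and 111 CPM and then 59.1, 60.5 and 86.5 CPM, with the third cKO library nearest the controls (adjusted p = 0.00483). Xylt2, a xylosyltransferase that starts the linker, fell from 52.8 to 37.4 CPM (adjusted p = 0.0175), a call lost without each library in turn but the third cKO library (adjusted p up to 0.0694), and Xylt1 was at 71.5 and 69.8 CPM (adjusted p = 0.856). B3galt6, which adds the linker's other galactose, went from 14.3 to 9.88 CPM (adjusted p = 0.0521). Slc35b2, which carries the sulfate donor into the Golgi, fell from 97.9 to 40.8 CPM (log2 fold -1.26, adjusted p = 5.18e-05), and Slc35a4, of the same transporter family, from 68.7 to 33.7 CPM (adjusted p = 0.000147). Of 12 nucleotide sugar transporters 5 were lower and 1 higher, against 21.4% and 17.6% of all genes.

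In heparan polymerization Ext1 and Ext2, the partners of the copolymerase, changed in opposite directions. Ext1 was at 11.4, 10.8 and 11.3 CPM in controls and 15.9, 17.7 and 28.3 CPM in cKO cells (log2 fold 0.89 ± 0.21, adjusted p = 0.00665). The third cKO library was again the highest, and without it Ext1 stayed higher (log2 fold 0.59, adjusted p = 0.0156). Ext2, which overlaps Alx4, was at 102, 102 and 120 CPM and then 56.4, 60.9 and 58.8 CPM (log2 fold -0.88 ± 0.11, adjusted p = 0.000176). Extl3, which begins the heparan chain, was at 85.7, 76.6 and 75.2 CPM in controls and 43.2, 46.1 and 35.2 CPM in cKO cells (log2 fold -0.93, adjusted p = 0.000258). Of the 5 members 3 were lower and 1 higher, against 21.4% and 17.6% of all genes.

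Of the 7 tested members of heparan sulfation 3 were lower and 1 higher, against 21.4% and 17.6% of all genes. The pair of tested Hs6st members, which sulfate the 6-O position, parted. Hs6st1 was at 181, 162 and 139 CPM in controls and 91.6, 80.7 and 90.1 CPM in cKO cells (log2 fold -0.88 ± 0.12, adjusted p = 0.000280). Hs6st2 was at 41.6, 49.2 and 68.0 CPM and then 63.2, 94.4 and 99.4 CPM, with 1 cKO library inside the control range (log2 fold 0.69 ± 0.20, adjusted p = 0.0151). The Hs6st2 call was lost without cKO library 2 or 3 or control 1 or 2 (adjusted p up to 0.0686). Ndst1, which swaps acetyl for sulfate groups along the chain, was at 322, 291 and 292 CPM in controls and 217, 224 and 133 CPM in cKO cells (adjusted p = 0.00964, and 0.0540 without the first control library). Sulf2, an enzyme that removes such sulfates outside the cell, fell from 182 to 75.3 CPM (log2 fold -1.27, adjusted p = 4.16e-05).

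Among the Chst sulfotransferases 3 of 8 tested members were lower (37.5%, against 21.4% of all genes). Chst12, which sulfates the 4-O position of chondroitin, was at 15.6, 18.3 and 19.4 CPM in controls and 7.50, 6.97 and 8.26 CPM in cKO cells (log2 fold -1.23 ± 0.17, adjusted p = 0.000331). Chst8, which sulfates the ends of N-glycans on pituitary hormones, was at 4.69, 2.49 and 2.52 CPM and then 0.771, 0.235 and 0.614 CPM (log2 fold -2.55 ± 0.51, adjusted p = 0.00240). Its log2 fold was the lowest of the members, at levels of few counts. Chst10, the sulfotransferase of the HNK-1 epitope, fell from 10.2 to 6.28 CPM (adjusted p = 0.0301), a call lost without cKO library 1 or 2 or control 1 or 3 (adjusted p up to 0.098). The proteoglycan cores that carry these chains were lower for 5 of 15 tested genes, and Col18a1 and Spock2, the named pair, fell from 1201 to 775 CPM and from 1507 to 1123 CPM (adjusted p = 0.00138 and 0.00791).

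Genes that supply or extend these pathways outside the symbol rule were counted from 12 lists of 170 genes. Of 141 tested, 51 were lower and 15 higher in cKO cells, with a median log2 fold of -0.25. In nucleotide sugar synthesis 6 of 22 were lower and 5 higher, against 21.4% and 17.6% of all genes. Among them were Mpi, a mannose phosphate isomerase that fell from 127 to 77.7 CPM, and Ugp2, which makes UDP-glucose and rose from 42.0 to 62.7 CPM (adjusted p = 0.000355 and 0.00134). Of 12 genes of O-mannose glycans 5 were lower and 1 higher, and Pomgnt2 and Pomk, which build the glycan of dystroglycan, fell from 49.9 to 25.6 CPM and from 34.8 to 17.0 CPM (adjusted p = 0.000216 and 0.000516). Linker and modification genes were higher for 2 and lower for 1 of 8, and Dsel, an epimerase of dermatan sulfate, rose from 7.01 to 14.6 CPM (adjusted p = 0.00213). Of the 4 tested fucosyltransferases, those with the smallest p were Fut10, at 21.0 CPM in controls and 15.1 CPM in cKO cells (adjusted p = 0.151), and Fut1, at 0.493 and 0.794 CPM (adjusted p = 0.494), and neither was called.

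Transcripts of these families had a higher summed TMM-scaled level in the RNA recovered with PTBP1 from cultured cells than in the input. These levels are not shares of the RNA. The summed level of the members was 5006, 5052 and 4957 CPM in the inputs and 8928, 9176 and 8871 CPM in the immunoprecipitates. Of 110 tested members 40 were enriched, meaning an adjusted p under 0.05 with a log2 fold of 1 or more (edgeR, adjusted over 12854 genes), and 17 were depleted by as much. Of all genes tested 20.7% were enriched and 27.0% depleted. The members' median log2 fold was 0.59, against -0.03 over all genes. Without the fold limit 60 members were higher (43.0% of all genes) and 33 lower (44.8%), where 87.8% of all genes were called in either direction, so the fold limit and not the adjusted p separated transcripts here. With no control antibody, a share that bound beads or antibody rather than PTBP1 cannot be told apart. The 40 untested members of the cultured table stayed at or under 0.869 CPM in each library, and 6 of them had no count.

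**Figure D3:**
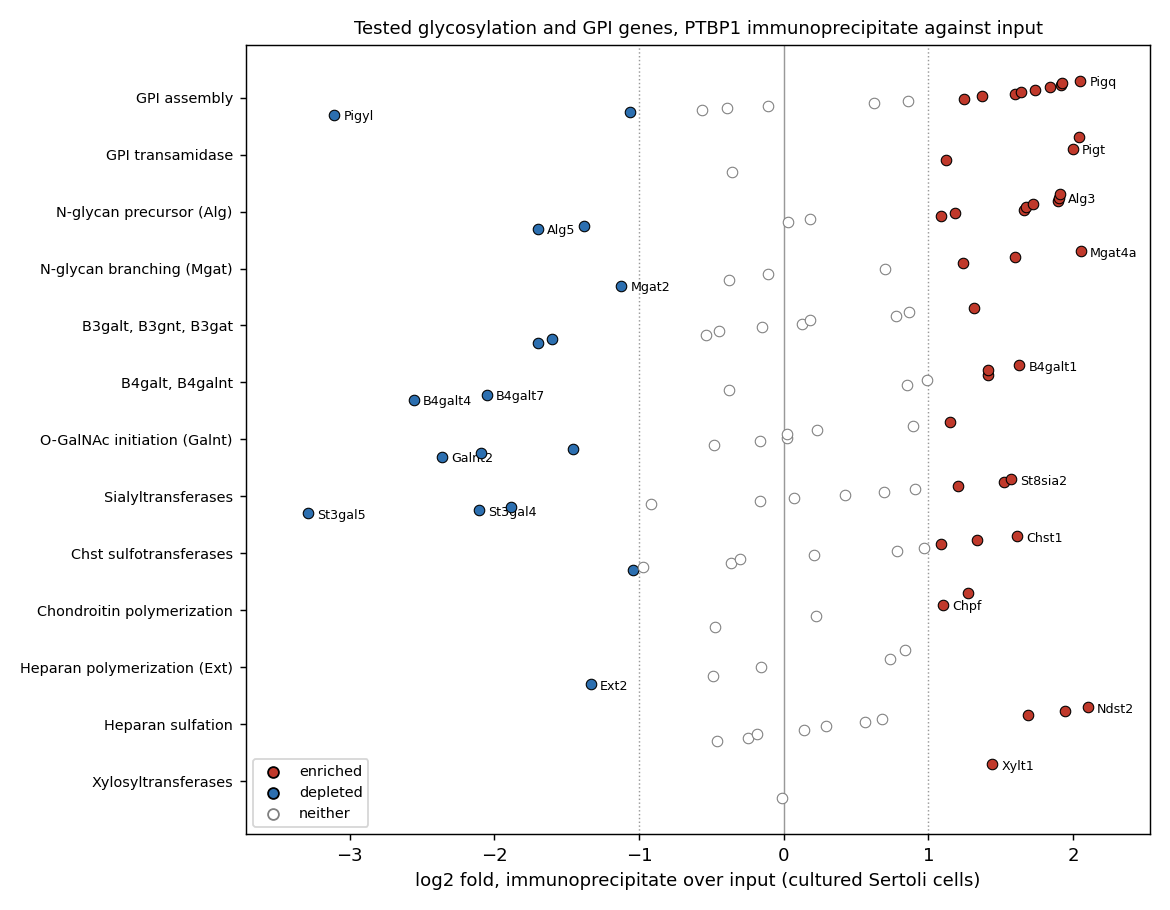
Each point is a member tested in cultured Sertoli cells, placed by its log2 fold in PTBP1 immunoprecipitate over input (horizontal axis) and by its role (vertical axis), with dotted lines at a log2 fold of -1 and 1. Red points are enriched, blue points depleted and white points neither. The rows of GPI assembly and of the N-glycan precursor hold 9 and 8 red points, and the row of the Galnt enzymes 1 red and 3 blue.

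Enrichment was most frequent among the genes of the GPI anchor and the N-glycan precursor. In GPI assembly 9 of 16 tested members were enriched and 2 depleted, and in the transamidase 3 of 4 were enriched. In the Alg group 8 of 12 were enriched and 2 depleted, against 20.7% and 27.0% of all genes. Pigq was at 92.6, 89.0 and 85.6 CPM in the inputs and 361, 377 and 368 CPM in the immunoprecipitates (log2 fold 2.05 ± 0.05, adjusted p = 2.89e-18), and its span overlaps Nhlrc4. Pigu was at 29.1, 26.7 and 29.7 CPM and then 111, 120 and 120 CPM (log2 fold 2.04), and Pigt at 77.8, 72.2 and 69.5 CPM and then 273, 312 and 291 CPM (log2 fold 2.0 ± 0.06). No library of either group lay within the range of the other for these genes. Pigb, the mannosyltransferase of the third mannose, and Pign, an ethanolamine phosphate transferase, had log2 folds of 1.93 and 1.91. Pigs had a log2 fold of 1.12, and Pigk went the other way, from 47.7 to 37.3 CPM (log2 fold -0.36). Pigyl, which has a near copy so that its reads may be split, was at 13.3, 16.3 and 14.2 CPM in the inputs and 1.46, 1.70 and 1.94 CPM in the immunoprecipitates (log2 fold -3.11). Alg3 and Alg6 both had a log2 fold of 1.90, whereas Alg5, the synthase of dolichyl phosphate glucose, went from 37.9 to 11.7 CPM (log2 fold -1.70).

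The related lists outside the symbol rule ranged widely, where 20.7% of all genes were enriched and 27.0% depleted. Of 8 genes of GPI attachment and remodelling 6 were enriched, of 11 dolichol genes 6 and of 12 nucleotide sugar transporters 8, with Slc35a4 at a log2 fold of 2.39 and Dpagt1 at 2.33. Of 11 oligosaccharyltransferase genes 5 were enriched and 3 depleted, and of 9 trimming enzymes 3 were enriched. Of 15 genes of mucin cores and Notch glycans 6 were enriched and 1 depleted, of 11 O-mannose genes 5 and 1, and of 10 linker and modification genes 3 and 2. In nucleotide sugar synthesis 1 of 22 was enriched and 8 were depleted. The proteins that carry the sugars or the anchor held few, with 1 of 16 proteoglycan cores and 4 of 27 GPI-anchored proteins enriched. The 4 tested fucosyltransferases had a median log2 fold of 0.21. Over the 12 lists 48 of 156 tested genes were enriched and 18 depleted, with a median log2 fold of 0.47.

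Among the Golgi enzymes enrichment was mixed. Ndst2, an N-deacetylase and N-sulfotransferase of heparan, had the highest log2 fold of the members, from 21.6, 26.1 and 23.5 CPM to 96.3, 107 and 104 CPM (log2 fold 2.10 ± 0.07, adjusted p = 3.86e-16). Hs2st1, which sulfates the 2-O position, was at 152, 157 and 156 CPM in the inputs and 597, 605 and 579 CPM in the immunoprecipitates (log2 fold 1.94). Mgat4a had a log2 fold of 2.05 from a low input level of 4.37 CPM, and its paralog Mgat4b a log2 fold of -0.38 from 103 CPM. In heparan polymerization Ext2 was depleted (log2 fold -1.33). Its partner Ext1 was also lower (-0.49) and Extl3 was higher (0.74), both without reaching the fold limit. Chpf was at 58.9, 61.3 and 53.5 CPM in the inputs and 120, 130 and 122 CPM in the immunoprecipitates, a log2 fold of 1.10 ± 0.06 that dropped under 1 with scaling by library size alone. Chsy1 was at 73.8 and 86.2 CPM (log2 fold 0.22).

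Of 12 tested sialyltransferases 3 were enriched and 3 depleted (25.0% each, near the 20.7% and 27.0% of all genes). Of 8 tested B4galt and B4galnt members 3 were enriched and 2 depleted (37.5% and 25.0%). St3gal5, the GM3 synthase, had the lowest log2 fold of the members, from 162, 160 and 153 CPM in the inputs to 16.0, 16.5 and 16.0 CPM in the immunoprecipitates, 9.78 times lower (log2 fold -3.29 ± 0.06, adjusted p = 4.87e-20). B4galt4, a galactosyltransferase, was at 70.7, 73.4 and 81.4 CPM and then 12.1, 13.0 and 13.3 CPM (log2 fold -2.56). B4galnt1 went from 39.9 to 30.7 CPM (log2 fold -0.38) and B3galt4 from 2.76 to 2.03 CPM (log2 fold -0.45), without reaching the fold limit. St3gal4, St3gal3 and B4galt7 had log2 folds of -2.11, -1.89 and -2.05. On the other side B4galt1, B4galt3 and B4galt6 were enriched, with log2 folds of 1.63, 1.41 and 1.41, and B4galt5 and St3gal2 were higher without reaching the fold limit (0.99 and 0.69). St8sia2 and St8sia1, the sialyltransferases of polysialic acid and of the ganglioside GD3, were enriched, with log2 folds of 1.57 and 1.52, as was St6galnac4 (1.21), which dropped under the limit with library size alone. Among the Galnt enzymes Galnt2 was depleted (log2 fold -2.36) at 1.43 CPM in the inputs, a level of few counts.

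Enriched transcripts were longer than depleted ones, among members and over all genes alike. The median exon length, taken from the sorted table and matched by symbol, was 5318.5 bases for the 40 enriched members and 2618 bases for the 17 depleted, against 5331 and 2612 bases over all genes. The members that were neither had a median of 4340 bases. What part length had in the enrichment was not tested.

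Of the 95 members tested in both comparisons, those lower in cKO cells were enriched with PTBP1 about as often as those that were not called. Of the 40 lower members 17 were enriched (42.5%) and 7 depleted (17.5%), and of the 44 not called 18 (40.9%) and 9 (20.5%). Of the 11 higher members 4 were enriched (36.4%) and 0 depleted. Over the 11142 genes tested in both, 22.9% of the lower, 20.8% of the uncalled and 13.2% of the higher genes were enriched. In the same order, 25.8%, 27.1% and 31.6% of those genes were depleted. Members lower and enriched included Chpf, Pigt, Pigs, Pigu, Pigq, Pigv, Pigo, Alg2, Alg3, Mgat5, St8sia2 and Ndst1. With library size as the sole scaling Chpf, Pigs, Pigv and Alg2 were no longer enriched. Among members lower in cKO cells, Chst12, Ext2, B3gat3, B4galt7, St3gal3 and St3gal4 were depleted. Piga, Pigw, Alg6 and B3galt1 were higher in cKO cells and enriched, although B3galt1 was not enriched under that scaling.

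**Figure D4:**
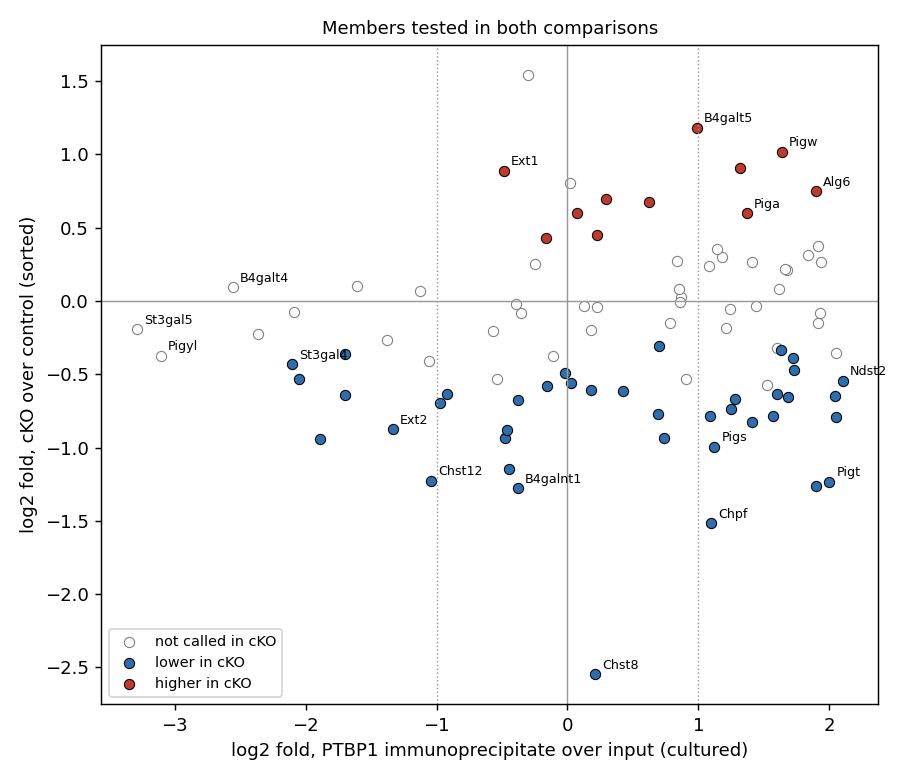
Each point is a member tested in both comparisons, with the log2 fold of PTBP1 immunoprecipitate over input in cultured cells on the horizontal axis and that of cKO over control in sorted cells on the vertical axis. Blue points were lower and red points higher in cKO cells, and dotted lines mark a log2 fold of -1 and 1. Blue points lie on both sides, 17 right of the line at 1 and 7 left of the line at -1.

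By levels per kb of exon within each table, the same member led in sorted controls and in cultured inputs for 4 of the 13 roles (Pigyl, B3gat3, Galnt1 and Ndst1), and another member led in the other 9. Mgat4b, Chpf, B4galnt1, Pigt and St3gal4 had the highest levels in sorted controls, at 241, 159, 135, 115 and 92.2 CPM per kb. In cKO cells the order was Mgat4b, St3gal5, St3gal4 and then B4galnt1 and Chpf, which were level at 55.8 CPM per kb. In the cultured inputs St6gal1, St3gal5, Galnt1, Ndst1 and Alg10b were the highest of all members, at 67.5, 60.5, 57.9, 46.6 and 42.5 CPM per kb. Chsy1 led chondroitin polymerization there, with 36.1% of the summed level. The tables were normalized separately and come from different library kits and RNA fractions, so these levels are set side by side without a test. A level of at least 1 CPM was reached by 99 members in controls, 99 in cKO cells and 103 in the inputs, and a level of at least 100 CPM by 20, 14 and 14.

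**Figure D5:**
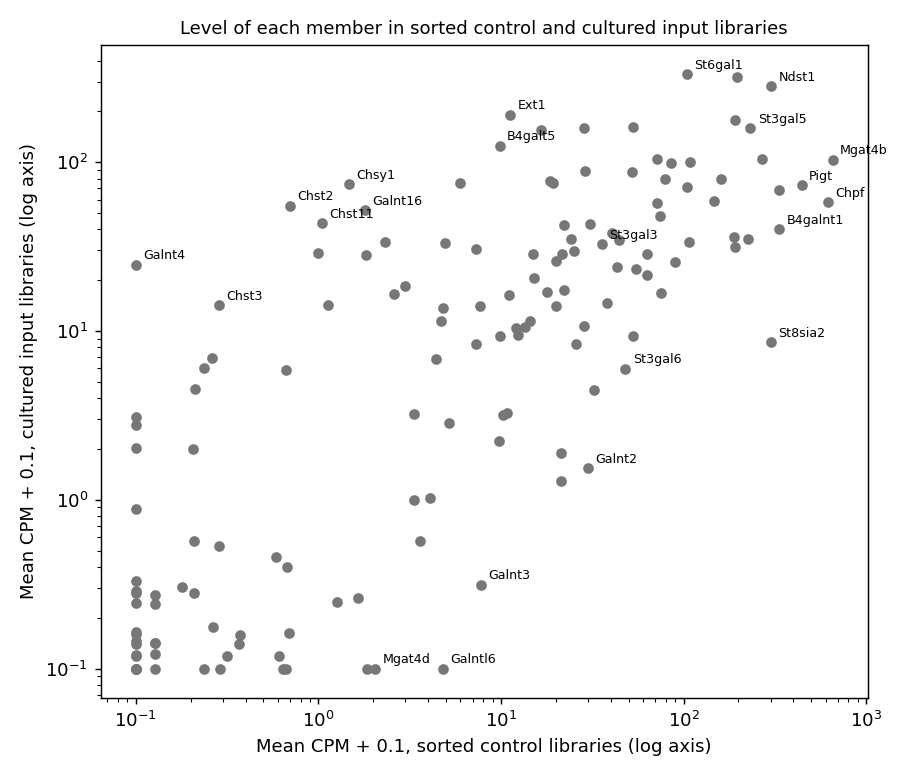
Each point is a member in both tables, with its mean level in sorted control libraries on the horizontal axis and in cultured inputs on the vertical axis, in CPM plus 0.1 on log axes. Chpf, Pigt, B4galnt1 and St8sia2 lie to the right, at 615, 445, 334 and 300 CPM in controls against 57.9, 73.2, 39.9 and 8.47 in inputs, and Mgat4d and Galntl6 lie at the bottom with no count in the inputs.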

How the data were processed

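The authors deposited 1 table of the sorted and 1 of the cultured libraries, and both hold counts: whole reads per gene, not normalized. The submitters' processing notes list the aligners STAR and Bowtie2 2.3.5.1, the counter HTSeq, bcl2fastq 2.20, cutadapt, DESeq2 and build mm10, without the step of each. Per the labels, sorted libraries were poly(A) RNA and cultured libraries total RNA. Gene positions and exon lengths are those of the sorted table. Its columns name a group but no replicate, so its libraries are numbered in table order, and 84 other per-library columns were not used.

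The 6 libraries of each comparison entered 1 edgeR 4.0.16 fit (R 4.3.3) after filterByExpr and TMM scaling. The robust quasi-likelihood test was two-sided, and p was adjusted over all genes tested by the Benjamini-Hochberg method. Values of a group are mean ± SD of 3 libraries, and a standard error is the log2 fold over the root of F. Alternatives were DESeq2 1.42.0, its size factors, library size alone, no filter on low counts, single libraries left out, the third sorted libraries left out, mitochondrially encoded genes left out, a replicate block, libraries 1 and 2 of the cultured groups summed, no fold limit, and members overlapping another gene left out (chosen after seeing the data). Simulations in which 200 genes were changed recovered, at 1.5-fold, 32.8% in the sorted and 77.6% in the cultured design. At 2-fold the shares were 67.2% and 94.0%, and at 4-fold 97.0% and 100%. Far more genes were called in the data: 21.4% lower and 17.6% higher in cKO cells, and 87.8% either way over input. The adjustment is stricter when few genes change, so these shares do not give the sensitivity of the calls above. Among genes left unchanged, 7 were called in the sorted and 19 in the cultured simulation.

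Members, lists and rules were chosen with earlier results of these data known. Named were Chpf and the transamidase genes, up to 3 members per role with the smallest p in cKO cells, members called there with a log2 fold of at least 1 either way or also enriched, the 8 most enriched and 4 most depleted members, the 5 highest per kb in controls, and up to 2 genes per other list. A few further members were named after their values were seen, as paralogs or pathway partners of these. Promoters are from RefSeq (GRCm38.p6), and for Pigt, which has 2 there, the promoter closest to the annotated start is shown.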

Additional observations from a re-analysis of the deposited data

How the results depend on the processing

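Members lower in cKO cells numbered 40, 30 to 38 without single libraries or the third libraries, 31 with library size alone and 28 of the 69 tested without an overlapping gene. Members higher numbered 14, 8 to 19 when libraries were left out, 9 and 8 without the first and the second control, and 18 with library size alone. Of these calls 29 of 40 and 7 of 14 were kept without any single library. Enriched members numbered 40, 41 to 44 without single libraries and 28 with library size alone, and depleted members 17, 16 to 18, and 10 without overlapping genes. With no fold limit 60 members were higher and 33 lower in the immunoprecipitate. The other lists had 15 genes higher in cKO cells (10 to 22 when libraries were left out, 27 with library size alone), 48 enriched (30 with library size alone, 90 with no fold limit) and 18 depleted (28 and 42). Over all genes, library size alone gave 1863 in place of 2870 lower in cKO cells and 1459 in place of 2664 enriched, and no fold limit gave 5527 and 5758. Leaving out single libraries gave 1717 to 2537 genes higher and 2067 to 3123 lower in cKO cells, and leaving out the third library of both groups 3023 and 3545. With library size alone the log2 folds over input of Alg1, Chsy1, Galnt1, Hs6st2, Mogs and Fut10 reversed to -0.34, -0.14, -0.14, -0.071, -0.058 and -0.31, and that setting moved the median of all genes to -0.39. No named log2 fold in cKO cells changed sign. The cause was not tested.

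Same-numbered cultured libraries correlated at 0.121, 0.0382 and 0.171 in their deviations from the group means. Inputs and immunoprecipitates of different numbers correlated at -0.154 to 0.0548. Whether libraries of the same number came from the same culture is not labelled and cannot be settled from these values. With the replicate block 40 members were enriched and 17 depleted, as without it. No paired analysis of the sorted libraries was possible because their columns carry no replicate number. The first number of the cultured library names is shared by libraries 1 and 2, and with these summed 43 members were enriched. Depth limits low members such as Chst8, Galnt2 and B3galt4.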
